A study of Mus musculus with 8 samples.

Results

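The genes described here had a higher array signal in the myotube RNA labelled truncated Egr3 than in each of the 3 other RNAs of the series. They were chosen from the signals themselves: a gene was taken when 1 of its probe sets read at least 1.5 times as high in the truncated-Egr3 RNA as in the wildtype RNA, in RNA275 and in RNA276, and when RNA276 was below 1.5 times RNA275. Before the ratios were taken, signals under 70 on array type A and under 110 on type B were set to those floors, so a ratio against an RNA at the floor is a bound from below, written as at least so many fold. The rule found 256 genes, 151 from type A arrays and 105 from type B, out of 11832 genes with a probe set above the floor in at least 1 RNA, which is 2.16% of them, and out of 18193 genes named on the arrays. Because the ratios to the 3 other RNAs chose the members, those ratios are given as a description and support nothing.

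The series holds total RNA of cultured mouse myotubes, the fused muscle cells that form from myoblasts, and asks which genes Egr3 regulates in them. The RNA labelled truncated Egr3 and the RNA labelled wildtype were both described as grown, RNA275 as acclimatised with no genotype given, and RNA276 carries no treatment or genotype at all. Each of the 4 RNAs was hybridised to 1 array of type A and 1 of type B, which carry largely different probe sets and are not replicates, so 8 arrays stand for 4 RNAs. The labels give no account of how the truncation was produced or delivered, whether several cultures were pooled, or the animals' strain and age.

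Egr3 is a zinc-finger transcription factor induced by growth and activity signals and needed for muscle spindles to form. Of the 17 pathway lists examined, the response to low oxygen had the highest share of members. When oxygen is plentiful, prolyl hydroxylases such as Egln1 and Egln3 mark the alpha subunit of the hypoxia-inducible factor HIF for destruction; when it is scarce, the subunit persists, pairs with its partner and binds short DNA elements near genes of glucose uptake, glycolysis, blood vessel growth and collagen maturation. In muscle this program is known for shifting energy production towards glycolysis.

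Each label has a single RNA, so no test across RNAs was possible and no p-value is given. Means of the signals after trimming 2% from each end were 150 on all 8 arrays. The share of probe sets above the floor was between 46.2% and 49.7% on type A and between 39.3% and 42.1% on type B. The error that could be measured is technical: 100 probe sets were printed on arrays of both types, and their readings gave an SD for a single log2 difference between truncated Egr3 and wildtype of 0.173. Whether this SD holds for dim probe sets was not tested. The same probe sets read this difference lower by 0.14 on type A than on type B, on average. The member probe set of Sec22b, a protein of vesicle fusion, is on both types: it read 256 in truncated Egr3, against 166 in wildtype, 151 in RNA275 and 139 in RNA276 on type A, and 979 in truncated Egr3, against 684 in wildtype, 719.6 in RNA275 and 768 in RNA276 on type B. Its ratio over the highest other RNA was thus 1.54 on type A and 1.27, outside the rule, on type B. Egr3 itself read 829.9 in the truncated-Egr3 RNA, 769 in wildtype, 1454 in RNA275 and 2627 in RNA276 by its probe set on type A, and 1039, against 1420 in wildtype, 1203 in RNA275 and 771 in RNA276 by that on type B. The probe sets differ in the order of the RNAs, and where they lie relative to the truncation was not analysed here, so they do not check the label.

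All 8 myotube markers were above the floor, with a summed signal of 16755 in truncated Egr3, 19070 in wildtype, 18510 in RNA275 and 20220 in RNA276. Of 8 fibroblast markers, Dcn and Col1a1 were above the floor and Pdgfra, Thy1, Dpt, Pi16, Lum and Tcf21 were below it in every RNA. The whole list of 8 summed to 3876 in truncated Egr3, 4598 in wildtype, 3787 in RNA275 and 4529 in RNA276. Dcn, a small proteoglycan, read 317 in truncated Egr3, against 157 in wildtype, 257 in RNA275 and 202 in RNA276. By another probe set, Dcn was at least 1.5-fold higher in RNA276 than in each other RNA. Endothelial markers were above the floor for 1 of 5, macrophage markers for 2 of 7 and adipocyte markers for 0 of 3. Schwann cell markers were above it for 2 of 3, smooth muscle and pericyte markers for 2 of 5 and tendon markers for 2 of 5, with medians of -0.44, -0.55 and -0.43 for the log2 difference between truncated Egr3 and wildtype. In RNA of a whole culture, a change in the number of cells of a type and a change in RNA per cell cannot be told apart, which holds for every difference below.

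Members ranged from 1.5 to 3.26 in the ratio of truncated Egr3 over the highest of the 3 other RNAs, with a median of 1.63. The ratio was at least 2 for 34 members and at least 2.5 for 7, while 107 were below 1.6. Over wildtype the median ratio was 1.67 and 48 members were at least 2-fold higher, where 0.542% of all measured genes were by their brightest probe set. Over RNA275 the median was 1.99, and over RNA276 it was 1.97. At the 1.5-fold level, 4.34% of all genes were higher in truncated Egr3 than in wildtype by their brightest probe set, 9.04% were higher than in RNA275 and 11.4% higher than in RNA276. The plot of members against all measured genes shows where the rule cuts, and most members lie close to it. By any amount, 46.4% of all genes by brightest probe set were higher in truncated Egr3 than in wildtype.

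**Figure D1:**
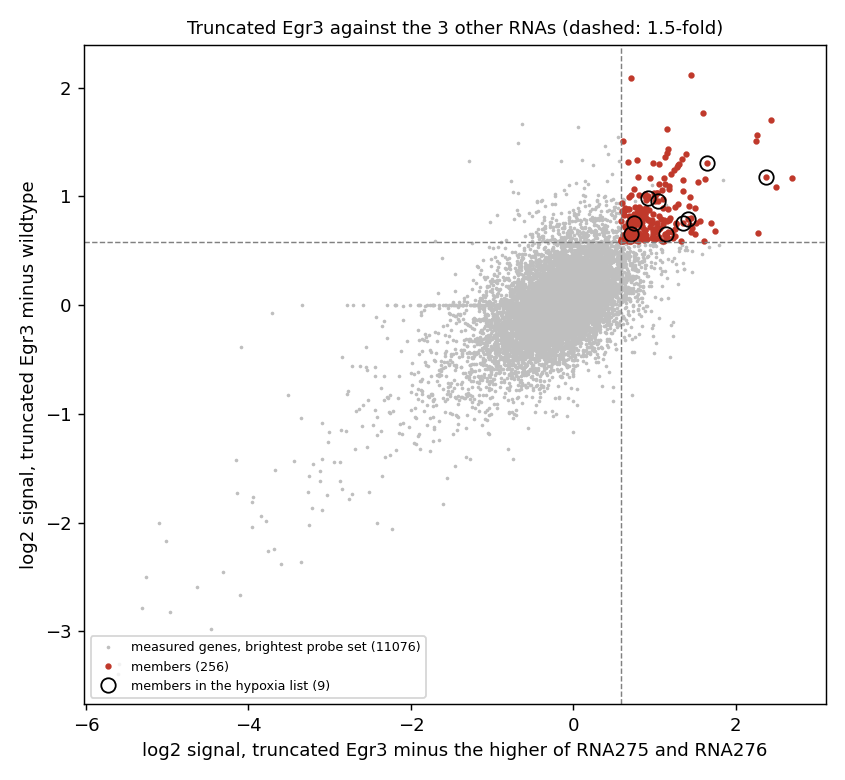
Log2 signal in truncated Egr3 minus wildtype (vertical axis) against truncated Egr3 minus the higher of RNA275 and RNA276 (horizontal axis), for the brightest probe set of 11076 measured genes in grey and for the 256 members in red; dashed lines mark 1.5-fold and circles mark the 9 members in the hypoxia list. The members fill the upper right corner by construction, and 107 of them have a ratio below 1.6 over the highest other RNA.

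Wildtype was the next highest RNA for 153 members, RNA276 for 35 and RNA275 for 29, and for 39 members all 3 others were at the floor. Wildtype thus read above both RNA275 and RNA276 in 59.8% of the members, against 29% of all measured genes. The rule did not set this order. It did choose genes low in RNA275 and RNA276 against truncated Egr3, so the shares are a description only. Many members therefore formed a series, with truncated Egr3 at the top, wildtype next and RNA275 and RNA276 below. Over all probe sets, wildtype was also the RNA most like truncated Egr3, with Spearman correlations over probe sets of 0.973 (type A) and 0.947 (type B), against 0.951 and 0.905 for RNA275 and 0.951 and 0.879 for RNA276. These cover 22690 and 22575 probe sets, which share their arrays and include many dim ones. The part of this likeness in the order of the members was not tested.

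The member with the largest ratio was Slc40a1, the exporter that carries iron out of cells. It read 572 in the truncated-Egr3 RNA, against 176 in wildtype, 90.0 in RNA275 and 106 in RNA276, which is 3.26-fold over wildtype. A second Slc40a1 probe set read 404, against 124 in wildtype, 56.8 in RNA275 and 106 in RNA276, and gave 3.25-fold; it missed the rule because RNA276 was over 1.5 times RNA275 there. Slc40a1 was the 1 member among 15 measured genes of the iron handling list, whose median log2 difference between truncated Egr3 and wildtype was -0.01.

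**Figure D2:**
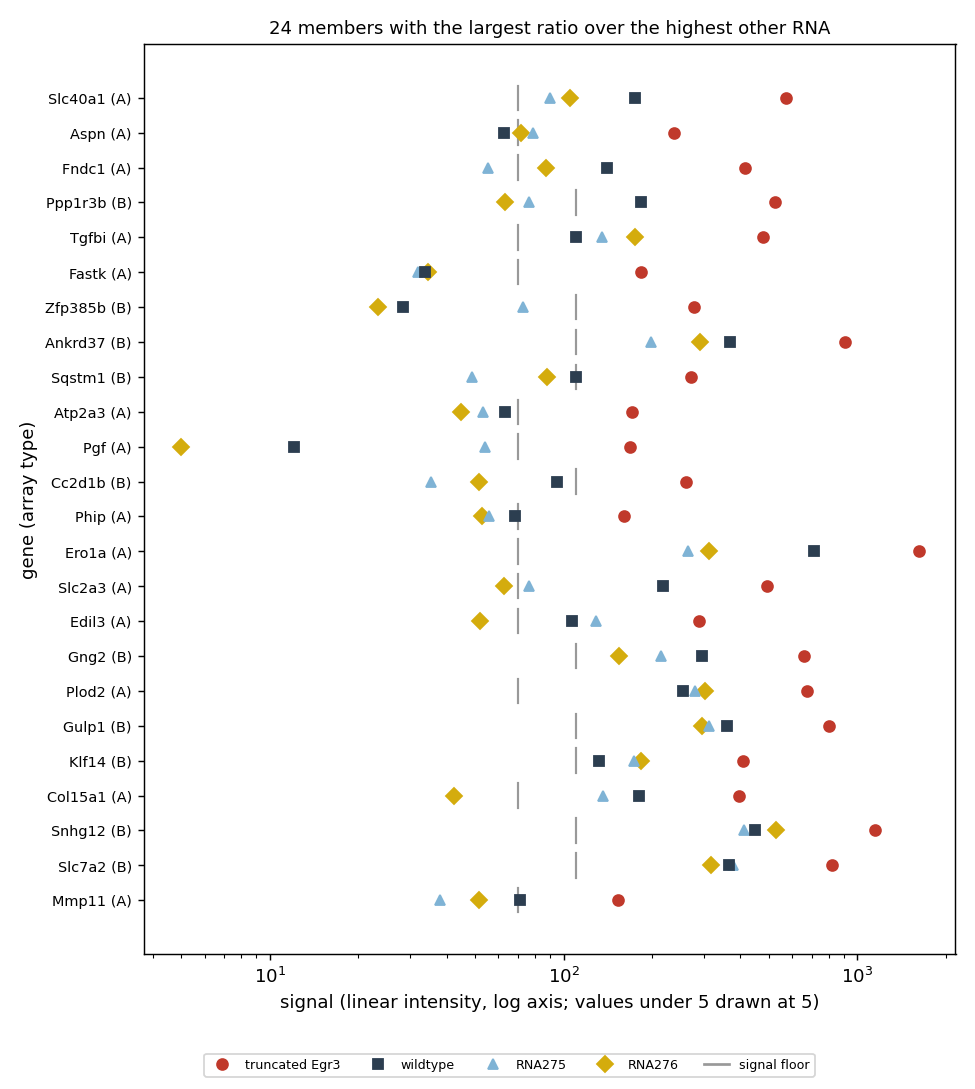
Signal on a logarithmic axis in truncated Egr3 (red circles), wildtype (dark squares), RNA275 (blue triangles) and RNA276 (yellow diamonds) for the 24 members with the largest ratio over the highest other RNA, with the array type in brackets and the floor as a grey tick; values under 5 are drawn at 5. The truncated-Egr3 RNA stands to the right of the other 3 in each row by construction, from 3.26-fold for Slc40a1 to 2.17-fold for Mmp11.

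Genes of the response to low oxygen had the highest share of members of the 17 pathway lists. The hypoxia list held 19 genes, of which 18 were above the floor by the probe set used, and 9 of these, or 50%, were members, beside 2.16% of all measured genes. The list was drawn up with earlier results of these data known. Truncated Egr3 was the highest of the 4 RNAs for 16 of the 18, where it was highest for 24% of all genes, and the median ratio over wildtype was 1.61. The 16 include the 9 members, for which the rule set this, so the count and the median are a description only. Wildtype in turn read above both RNA275 and RNA276 for 14 of the 18, where it did for 29% of all measured genes, counted there on floored signals. Summed over the list, the signal was 17054 in truncated Egr3, 11269 in wildtype, 6594 in RNA275 and 8539 in RNA276.

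Among the sensors and the factor itself, Egln3, a prolyl hydroxylase that is itself induced by HIF, read 1101 in truncated Egr3, against 699 in wildtype, 497 in RNA275 and 456 in RNA276. Its second probe set gave a wider difference, at 858 against 352 in wildtype, 176 in RNA275 and 219 in RNA276. Egln1, the main oxygen sensor of the same family, read 463 in truncated Egr3, against 238 in wildtype, 189 in RNA275 and 225 in RNA276. By a second Egln1 probe set it read 353, against 230 in wildtype, 122 in RNA275 and 191 in RNA276. That probe set missed the rule because RNA276 was at least 1.5 times RNA275. Hif1a, which encodes the oxygen-regulated subunit, was a member outside the list, at 1041 in truncated Egr3, against 680.2 in wildtype, 586 in RNA275 and 484 in RNA276. Its 2 other measured probe sets were also higher in truncated Egr3 than in wildtype, by 1.33-fold and 1.40-fold, under the threshold.

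Of the target genes, Ankrd37, an ankyrin-repeat protein known as a direct HIF target, had the largest ratio. It read 909 in truncated Egr3, against 368 in wildtype, 199 in RNA275 and 292 in RNA276. Ero1a, the oxidase that supplies disulfide bonds in the endoplasmic reticulum, read 1617 in truncated Egr3, against 713 in wildtype, 265 in RNA275 and 313 in RNA276. All 3 Ero1a probe sets met the rule, at 2.27-fold, 2.12-fold and 2.11-fold over wildtype. Vegfa, the growth factor of blood vessels, read 430.1 in truncated Egr3, against 249 in wildtype, 161 in RNA275 and 136 in RNA276, while its other probe set read 229, against 191 in wildtype, 189 in RNA275 and 203 in RNA276. Pgf, a relative of Vegfa outside the list, read 169 in truncated Egr3 and was below the floor in the other 3 RNAs, so it was at least 2.41-fold higher. Higd1a, a small mitochondrial protein, read 1348 in truncated Egr3, against 679.8 in wildtype, 539.5 in RNA275 and 709.5 in RNA276.

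Members that steer carbon were also in the list. Slc2a1, the basal glucose transporter, read 715 in truncated Egr3, against 456 in wildtype, 439 in RNA275 and 369 in RNA276. Pdk1, the kinase that keeps pyruvate out of the mitochondrial citrate cycle, read 472 in truncated Egr3, against 280.0 in wildtype, 156 in RNA275 and 185 in RNA276. Of its 3 other measured probe sets 2 met the rule, and the brightest of them, on type B, read 1047, against 464 in wildtype, 339.9 in RNA275 and 329 in RNA276. Pfkfb3, which makes the sugar phosphate that activates glycolysis, read 118 in truncated Egr3 and was below the floor in the others, at least 1.68-fold.

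**Figure D3:**
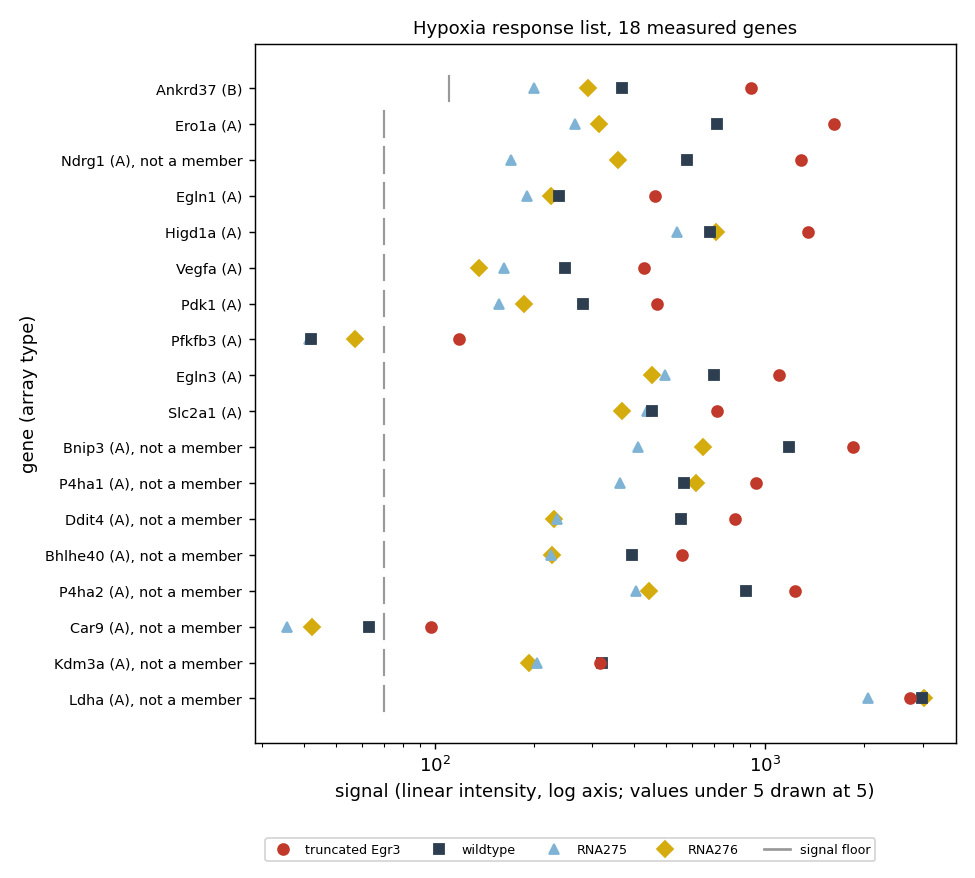
Signal on a logarithmic axis for the 18 measured genes of the hypoxia list in truncated Egr3 (red circles), wildtype (dark squares), RNA275 (blue triangles) and RNA276 (yellow diamonds), with the array type in brackets, members and non-members marked, and the floor as a grey tick. Truncated Egr3 lies furthest to the right for 16 genes, and Kdm3a and Ldha are the exceptions.

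The list genes that were not members mostly differed in the same direction. Ndrg1 read 1288 in truncated Egr3, against 581 in wildtype, 170.3 in RNA275 and 358 in RNA276, and Bnip3, which marks mitochondria for removal, read 1849.5, against 1179 in wildtype, 411 in RNA275 and 651 in RNA276. P4ha1, a subunit of collagen prolyl hydroxylase, read 939 in truncated Egr3, against 568 in wildtype, 362 in RNA275 and 616 in RNA276. These 3 met all the ratios of truncated Egr3 and failed on RNA276 being at least 1.5 times RNA275. Ddit4, Bhlhe40 and P4ha2 were also highest in truncated Egr3 but under 1.5-fold over wildtype, at 1.46, 1.41 and 1.41. Car9 read 97.3 in truncated Egr3 and was below the floor in the others, at least 1.39-fold. Kdm3a read 316 in truncated Egr3 and 321 in wildtype, and Ldha, the muscle-type lactate dehydrogenase subunit, read 2755 in truncated Egr3 and 2997 in wildtype, so neither was higher. Counting any probe set, 12 of 19 hypoxia genes were at least 1.5-fold above each other RNA in truncated Egr3, and 0 of 19 were in wildtype, in RNA275 or in RNA276 by the same measure. Of all measured genes, 2.32% were called that way in truncated Egr3, 0.668% in wildtype, 4.96% in RNA275 and 5.35% in RNA276. Another set, of 153 of the 11832 measured genes, had truncated Egr3 at least 1.5-fold over wildtype and RNA276 at least 1.5-fold over RNA275. It also held hypoxia genes, 4 of 19 or 21.1%, which were Bnip3, Ndrg1, P4ha1 and, by a second probe set, Egln1.

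Promoters of 6 hypoxia members are shown because the core of the element that HIF binds, searched here as ACGTG, can be read in them. The search was made after the values were seen. It covered the 250 bases before each gene's start on both strands, and its matches include every CACGTG, the E-box read by other factors. RefSeq promoters of the GRCm38.p6 build were available for 191 of the 256 members and for all 9 hypoxia members. Those of Higd1a, Pdk1 and Vegfa held no match to ACGTG and are not printed. The letters GCGTG were not searched, and they stand in the Higd1a and Pdk1 promoters. A match was found in 6 of the 9, namely Ankrd37 (chr8:45999851-46000100, minus strand), Egln1 (chr8:124949255-124949504, minus strand), Egln3 (chr12:54203875-54204124, minus strand), Ero1a (chr14:45318573-45318822, minus strand), Pfkfb3 (chr2:11553930-11554179, minus strand) and Slc2a1 (chr4:119108495-119108744, plus strand). Each is printed in the direction of transcription, ending at the base before the start, with ACGTG or its reverse complement CACGT in capitals.
Ankrd37: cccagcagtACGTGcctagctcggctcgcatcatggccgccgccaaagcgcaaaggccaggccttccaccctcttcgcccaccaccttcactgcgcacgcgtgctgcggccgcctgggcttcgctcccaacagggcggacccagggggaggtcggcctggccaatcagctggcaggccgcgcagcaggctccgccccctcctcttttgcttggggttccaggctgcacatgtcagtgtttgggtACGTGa
Egln1: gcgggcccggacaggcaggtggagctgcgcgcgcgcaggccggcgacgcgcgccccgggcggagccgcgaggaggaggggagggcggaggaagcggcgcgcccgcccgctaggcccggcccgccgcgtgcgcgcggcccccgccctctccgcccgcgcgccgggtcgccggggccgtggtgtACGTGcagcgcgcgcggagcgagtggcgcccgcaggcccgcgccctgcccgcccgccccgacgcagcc
Egln3: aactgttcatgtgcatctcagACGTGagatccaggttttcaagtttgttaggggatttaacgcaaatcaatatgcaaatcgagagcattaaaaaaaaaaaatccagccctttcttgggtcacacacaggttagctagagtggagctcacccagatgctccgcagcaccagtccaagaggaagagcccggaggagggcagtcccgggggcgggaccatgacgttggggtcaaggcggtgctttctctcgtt
Ero1a: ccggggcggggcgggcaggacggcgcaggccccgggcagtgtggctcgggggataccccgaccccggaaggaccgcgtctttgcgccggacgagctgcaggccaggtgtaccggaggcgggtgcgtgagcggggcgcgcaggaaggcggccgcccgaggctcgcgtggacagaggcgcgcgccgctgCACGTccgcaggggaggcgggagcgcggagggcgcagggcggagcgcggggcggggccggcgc
Pfkfb3: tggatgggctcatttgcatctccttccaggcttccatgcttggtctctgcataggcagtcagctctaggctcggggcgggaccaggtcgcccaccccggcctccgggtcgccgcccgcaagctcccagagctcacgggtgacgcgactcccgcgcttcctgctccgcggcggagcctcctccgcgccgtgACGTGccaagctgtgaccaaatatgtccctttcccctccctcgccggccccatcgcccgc
Slc2a1: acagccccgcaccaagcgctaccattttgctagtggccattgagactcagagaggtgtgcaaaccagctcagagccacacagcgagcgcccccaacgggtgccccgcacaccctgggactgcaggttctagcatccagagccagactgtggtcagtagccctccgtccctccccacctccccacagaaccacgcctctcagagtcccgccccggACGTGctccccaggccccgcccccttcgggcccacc

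Ankrd37 has ACGTG at 241 and 6 bases before its start, Slc2a1 at 36, Pfkfb3 at 60, Ero1a at 63, Egln1 at 68 and Egln3 at 229. Over all members ACGTG was found in 54 of 191 promoters, or 28.3%, against 22.1% of the promoters of measured genes and 16.5% of all 27025 promoters. The members' promoters also had more G and C, with a median of 63.2%, against 60% for measured genes and 52% for all. The part of base composition in these shares was not tested. Letters bound by EGR proteins, GCGNGGGCG, stood in 20 member promoters, or 10.5%, against 8.83% for measured genes and 4.63% for all. Shares for the cyclic AMP element TGACGTCA were 3.66% of members, 2.62% of measured genes and 1.6% of all, and those for the C/EBP-ATF letters TGATGNAAN were 1.57%, 1.97% and 3.52%. A match describes letters in this window and is not a binding site, and its absence says nothing of a factor.

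Genes of glucose uptake, glycolysis and glycogen formed a second group. Of 21 measured genes in the glycogen and glucose list, 6 were members, or 28.6%, beside 2.16% of all measured genes. Of those 6, 3 stand in the hypoxia list too, namely Slc2a1, Pdk1 and Pfkfb3. The other 3 were Slc2a3, Ppp1r3b and Ppp1r3c. Slc2a3, a glucose transporter of high affinity, read 491 in truncated Egr3, against 218 in wildtype, 76.1 in RNA275 and 62.6 in RNA276, and a second probe set, at 217 against 107 in wildtype, met the rule as well. Ppp1r3b, a subunit that directs protein phosphatase to glycogen and so promotes its synthesis, read 523 in truncated Egr3, against 183 in wildtype, and was below the floor in RNA275 and RNA276. Ppp1r3c, a subunit of the same kind, read 162 in truncated Egr3, against 102 in wildtype, 47.5 in RNA275 and 81.2 in RNA276. Stbd1, which tethers glycogen to membranes, and Phkb, a subunit of the kinase that starts glycogen breakdown, were members outside the list, and Phkb lay at the edge of the rule at 1.5. No list gene was 1.5-fold lower than in wildtype, 17 of the 21 were higher by any amount and the median log2 difference was 0.27, where the median of all genes was 0. Of all genes, 4.16% were 1.5-fold lower and 46.4% were higher by any amount. Hk2, which traps glucose in the cell, read 429.7 in truncated Egr3 and 470.3 in wildtype.

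Collagens and other matrix genes were the third group, with 8 members among 35 measured genes of the extracellular matrix list, or 22.9%, beside 2.16% of all. Col5a1, a collagen of fibril cores, read 1894 in truncated Egr3, against 1192 in wildtype, 723 in RNA275 and 844 in RNA276. Col12a1, a collagen on fibril surfaces, read 333 in truncated Egr3, against 198 in wildtype, 117 in RNA275 and 87.2 in RNA276. Col15a1, a basement membrane collagen, read 396 in truncated Egr3, against 180.0 in wildtype and 136 in RNA275, and was below the floor in RNA276. In all 3 the order was truncated Egr3, wildtype and then the unassigned RNAs. Plod2, a lysyl hydroxylase that sets the kind of collagen cross-link, was a member outside the list, at 673 in truncated Egr3, against 255 in wildtype, 279 in RNA275 and 303 in RNA276. Its other probe set read 1048 in truncated Egr3, against 553 in wildtype, 239 in RNA275 and 475 in RNA276.

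Tgfbi, a matrix protein that binds collagen and integrins, had the largest ratio over wildtype of any member, 4.35-fold, at 479 in truncated Egr3, against 110.1 in wildtype, 135 in RNA275 and 175 in RNA276. Of its 3 other probe sets 2 met the rule, and the remaining one read 216 in truncated Egr3, against 161 in wildtype, 158 in RNA275 and 223 in RNA276. Aspn, a small leucine-rich proteoglycan, read 238 in truncated Egr3, against 62.5 in wildtype, which is below the floor, 78.8 in RNA275 and 71.7 in RNA276, and both of its probe sets met the rule. Edil3, a secreted integrin ligand, read 288 in truncated Egr3, against 107 in wildtype, 129 in RNA275 and 52.1 in RNA276. Thbs2, a thrombospondin, read 642 in truncated Egr3, against 363 in wildtype, 213 in RNA275 and 309.9 in RNA276. Fndc1, a fibronectin-domain protein, read 416 in truncated Egr3, against 141 in wildtype, 55.3 in RNA275 and 87.0 in RNA276 on type A, but its type B probe set went the other way, at 197 against 304 in wildtype, 399.5 in RNA275 and 378 in RNA276. Its membership therefore rests on 1 of 2 probe sets that disagree.

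The matrix list did not move as a block. Truncated Egr3 was higher than wildtype for 22 of the 35 genes, by at least 1.5-fold for 9 and lower by that much for 1, and the median log2 difference was 0.14. Of all genes, 46.4% were higher, 4.34% by at least 1.5-fold, and 4.16% were lower by that much. By any probe set, 4 of the 35 were at least 1.5-fold higher in RNA276 than in each other RNA. These were Dcn, Fbln5, Thbs1 and Timp2, and 5.35% of all measured genes were called that way. Col1a1, the main fibrillar collagen, read 3417 in truncated Egr3, against 4295 in wildtype, 3336 in RNA275 and 4199 in RNA276. Timp1, an inhibitor of matrix proteases, was the gene that was lower, at 787 in truncated Egr3, against 2196 in wildtype, 2159 in RNA275 and 1544 in RNA276. Mmp14, a membrane-bound matrix protease, read 814 in truncated Egr3, against 418 in wildtype and 667 in RNA276, so it was under 1.5-fold over RNA276. The part of other cell types in the collagen signals was not tested, and the fibroblast markers above the floor are those given earlier. Mmp11, a secreted protease and the member ranked last of the first 24, read 154 in truncated Egr3, against 70.8 in wildtype, and was below the floor in RNA275 and RNA276.

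Stress of the endoplasmic reticulum gave 4 members among 28 measured genes in the list for unfolded protein and amino acid stress. That is 14.3%, beside 2.16% of all measured genes. Ddit3, a transcription factor induced when protein folding fails, read 546 in truncated Egr3, against 129 in wildtype, 222 in RNA275 and 332 in RNA276. It was the member with the largest ratio over wildtype in this group, 4.24-fold, and its second probe set met the rule too, at 261 in truncated Egr3, against 139 in RNA276 and values below the floor in wildtype and RNA275. Trib3, a pseudokinase that Ddit3 can induce, read 483 in truncated Egr3, against 322 in wildtype, 209 in RNA275 and 224 in RNA276, close to the threshold. Herpud1, which takes part in degrading misfolded proteins, read 554 in truncated Egr3, against 276 in wildtype, 206 in RNA275 and 293 in RNA276. Hspa5, the main chaperone of the compartment, read 1565 in truncated Egr3, against 1016 in wildtype, 1015 in RNA275 and 885 in RNA276.

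Other probe sets of these 4 genes seldom met the rule. The brighter Herpud1 probe set read 519 in truncated Egr3, against 336 in wildtype, 346 in RNA275 and 548 in RNA276. Hspa5 read 3003 in truncated Egr3, against 2738 in wildtype, by its brightest probe set, and by a type B probe set 2863, against 2044 in wildtype, 2284 in RNA275 and 3067 in RNA276. Of 5 such probe sets 1 met the rule, although all 5 were higher than in wildtype. In the list as a whole 24 of 28 genes were higher in truncated Egr3 than in wildtype and the median log2 difference was 0.29. Of all genes, 46.4% were higher, with a median of 0. Atf4, the central activator of the amino acid response, read 1521 in truncated Egr3 and also 1521 in RNA276, against 1102 in wildtype and 936 in RNA275, and Atf3, another stress-induced factor, read 53.3, which is below the floor, against 117 in wildtype, 200.1 in RNA275 and 84.4 in RNA276.

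Carriers of amino acids were found beside the stress genes. Slc7a2, which imports arginine and lysine, read 822 in truncated Egr3, against 366 in wildtype, 377 in RNA275 and 317 in RNA276. Slc38a2, the neutral amino acid carrier that rises when amino acids are short, read 1441 in truncated Egr3, against 955 in wildtype, 769 in RNA275 and 886 in RNA276. Its 2 other probe sets read 761 and 255 in truncated Egr3, against 644 and 184 in wildtype and 728 and 273 in RNA276, so neither met the rule. Aldh1l2, a mitochondrial enzyme of folate metabolism, read 3348 in truncated Egr3, against 1922 in wildtype, 1221 in RNA275 and 1109 in RNA276. These genes, like the others outside the 24 leading members and the lists, were chosen for naming after their values were seen.

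In the list of muscle differentiation and the mature fibre, 2 of 61 measured genes were members, or 3.28%, near the 2.16% of all measured genes. The median log2 difference between truncated Egr3 and wildtype was -0.03, and 29 of the 61 were higher by any amount. At the 1.5-fold level 7 were higher than in wildtype and 0 lower, where 4.34% of all genes were higher and 4.16% lower. Myh1, a fast adult myosin heavy chain, read 1855 in truncated Egr3, against 1094 in wildtype, 904 in RNA275 and 1142 in RNA276, and its other measured probe set read 1956, against 1641 in wildtype. Trdn, a protein of the calcium release complex, read 361 in truncated Egr3, against 227 in wildtype and 74.6 in RNA275, and was below the floor in RNA276. Myosin heavy chain genes are near-identical in sequence, and how far this probe set reads other myosins was not tested. Atp2a3, a calcium pump of the endoplasmic reticulum, read 171 in truncated Egr3 and was below the floor in the other RNAs, at least 2.45-fold. Scn7a, a sodium channel gene, read 1263 in truncated Egr3, against 593 in wildtype and 224 in RNA275, and was below the floor in RNA276; a second probe set, at 899.5 against 326 in wildtype, met the rule. Cd34, which marks satellite cells and vessels, was the 1 measured satellite cell marker of 4 and read 129.8 in truncated Egr3, against 74.4 in wildtype and values below the floor in RNA275 and RNA276.

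Regulators of transcription and signalling were also members. Klf14, a zinc-finger transcription factor, read 408 in truncated Egr3, against 132 in wildtype, 174 in RNA275 and 184 in RNA276, and was the 1 member of 12 measured Krueppel-like factors. Gng2, a G protein gamma subunit, read 659.7 in truncated Egr3, against 295 in wildtype, 215 in RNA275 and 155 in RNA276. Gulp1, an adaptor for the engulfment of dying cells, had 3 probe sets that all met the rule, and the brightest read 801 in truncated Egr3, against 361 in wildtype, 313 in RNA275 and 296 in RNA276. Gng2 met the rule by 2 probe sets. Rora, a nuclear receptor of the circadian clock, met the rule by 3 of its 9 probe sets, and the one that stands for it was dim, at 111 in truncated Egr3, against 68.5 in wildtype. A further Rora probe set read 70.8 in truncated Egr3, below the floor, against 180.4 in RNA276, and was highest only in that RNA. Txnip, which limits glucose uptake, read 298 in truncated Egr3, against 118 in wildtype, 172 in RNA275 and 168 in RNA276. Igf2r, a receptor that clears the growth factor Igf2, read 656 in truncated Egr3, against 423 in wildtype, 241 in RNA275 and 274 in RNA276. Tsc22d1, in the TGF-beta list with Tgfbi, read 303 in truncated Egr3, against 144 in wildtype, 155 in RNA275 and 180.0 in RNA276, but its brightest probe set read 1304, against 1369 in wildtype.

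By RefSeq's gene types the members were 244 coding genes, 10 long non-coding RNAs and 2 transcribed pseudogenes. Snhg12, a host transcript of small nucleolar RNAs, read 1148 in truncated Egr3, against 448 in wildtype, 411 in RNA275 and 527 in RNA276. Gas5, a transcript of the same kind that accumulates when translation or growth stops, read 1296 in truncated Egr3, against 845 in wildtype, 657 in RNA275 and 806 in RNA276, and a second probe set met the rule at 1155 against 739 in wildtype. Both transcripts were lowest in RNA275.

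The members were also sorted by role after their values were seen, which placed 135 of the 256 in 14 roles and left 121 in none. How many of all measured genes have each role was not counted, so the numbers below show no excess of any role. Transcription factors and chromatin proteins numbered 23, with ratios over the highest other RNA between 1.5 and 2.22. Of these, Nfia, a transcription factor of the nuclear factor I family, read 464 in truncated Egr3, against 249.8 in wildtype and 165 in RNA275, and was below the floor in RNA276. Kdm6b, which removes repressive methyl groups from histones, read 633 in truncated Egr3, against 413 in wildtype and 270.1 in RNA275, and was also below the floor in RNA276. By its brightest probe set Kdm6b read 1193 in truncated Egr3, against 1179 in wildtype and 1335 in RNA275, and by another 110.2, against 178 in wildtype, so its membership rests on 1 of 3 probe sets. Growth factors, guidance molecules and receptors numbered 11 and reached 1.93. Sema3c, a secreted guidance molecule, read 1178 in truncated Egr3, against 524 in wildtype, 610.2 in RNA275 and 304 in RNA276, and Pdgfc, a platelet-derived growth factor, read 686, against 373 in wildtype, 425 in RNA275 and 404 in RNA276. RNA-binding proteins numbered 10 and vesicle traffic proteins 9. Hnrnpa1, a splicing regulator, led the RNA-binding members at 405 in truncated Egr3, against 163 in wildtype, 185 in RNA275 and 204 in RNA276, while the vesicle traffic members were all near the threshold, between 1.5 and 1.58.

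Several of the largest ratios belong to probe sets that were dim in 3 RNAs or that disagree with others of the same gene. Fastk read 183 in truncated Egr3 and between 32.1 and 34.7 in the other RNAs, so its ratio is at least 2.62. Zfp385b, a zinc-finger gene, read 279 in truncated Egr3 and was below the floor elsewhere, while its 2 other probe sets read 65.6 and 181 in truncated Egr3, against 118 and 195 in RNA276. Sqstm1, the autophagy receptor that links cargo to the autophagosome, read 271 in truncated Egr3, against 109.97 in wildtype, 48.8 in RNA275 and 87.7 in RNA276 on type B, but its bright type A probe set read 1749, against 1659 in wildtype, 1511 in RNA275 and 1724 in RNA276. Cc2d1b read 260.5 in truncated Egr3 and was below the floor elsewhere, while its other probe set read 300.0 in truncated Egr3, against 426 in RNA276. Phip met the rule by 1 of 9 probe sets, at 161 in truncated Egr3 and below the floor in the other RNAs, and its brightest probe set read 902, against 781 in wildtype and 813 in RNA275. For Zfp385b, Sqstm1, Cc2d1b and Phip the choice of probe set decides the membership.

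A wider view of this comes from the other probe sets of member genes, besides the one that stands for each gene. They were measured on the same RNAs. There were 361 of them above the floor, for 184 of the 256 genes. Truncated Egr3 was higher than wildtype in 269, or 74.5%, where it was higher in 47.0% of all 19878 measured probe sets. It was the highest of the 4 RNAs in 224, or 62.0%, against 25.3% of all. Of the 361, 45, or 12.5%, met the rule themselves, where 1.5% of probe sets did on type A and 1.53% on type B. These 45 were set aside only because another passing probe set stood for the gene. All shares given here include them and are a description only. The median ratio over wildtype was 1.2 for the other probe sets and 1 for all. Most differences were thus smaller there than in the probe sets that stand for the genes. In 3 of the 361 truncated Egr3 was at least 1.5-fold lower than wildtype. Members had a mean of 3 probe sets, against 2.22 for a measured gene, and the probe set picked was the gene's brightest for 150 members. By brightest probe sets alone, 1.35% of 11076 genes met the rule.

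**Figure D4:**
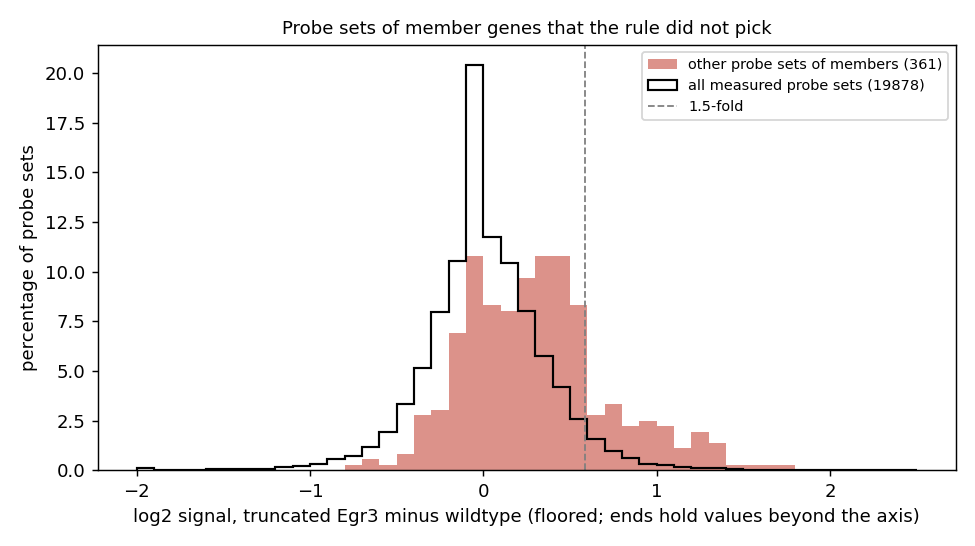
Distribution of the log2 difference between truncated Egr3 and wildtype for 361 other probe sets of member genes (red) and for all 19878 measured probe sets (black outline), as a percentage of probe sets per bin; the dashed line marks 1.5-fold and the end bins hold values beyond the axis. The red distribution lies to the right of the outline, with a median ratio of 1.2 against 1.

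The same count was made for the members of each main list. The 11 other measured probe sets of the hypoxia members, in 7 genes, were all higher in truncated Egr3 than in each of the 3 other RNAs, by 1.2-fold to 2.44-fold over wildtype, and 7 met the rule. For the matrix members 10 of 11 were higher than in wildtype and 7 met the rule, and for the glycogen and glucose members 7 of 7 were higher and 4 met the rule. For the stress members 5 of 5 were higher and 1 met the rule. The rule fixed the direction of the probe sets that met it, so these counts are a description only. Of all measured probe sets, 47.0% were higher in truncated Egr3 than in wildtype and 25.3% were highest in truncated Egr3.

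Of the 17 lists examined, 5 held no member: the interferon response with 0 of 24 measured genes, cell cycle and DNA replication with 0 of 22, p53 targets with 0 of 16, the neuromuscular junction with 0 of 14 and lipid uptake and oxidation with 0 of 12. Interferon genes had the opposite pattern, with 19 of 24 at least 1.5-fold lower in truncated Egr3 than in wildtype, where 4.16% of all genes were, and 21 highest only in RNA276. Of 17 measured Egr factors, Nab corepressors and reported Egr targets, Vegfa was the 1 member, and the median log2 difference between truncated Egr3 and wildtype was -0.34, with 2 genes at least 1.5-fold higher and 6 lower. Of all genes, 4.34% were higher and 4.16% lower by that measure.

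**Figure D5:**
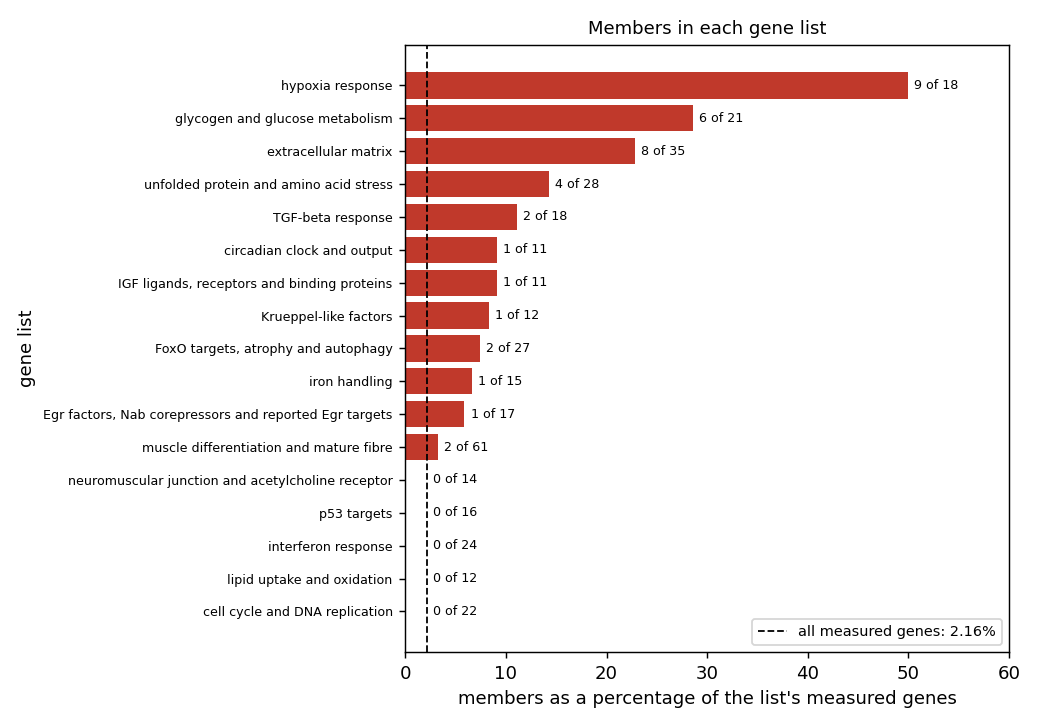
Members as a percentage of the measured genes in each of 17 gene lists, with the counts beside the bars; the dashed line marks 2.16%, the share over all measured genes. The hypoxia list stands at 9 of 18, and 5 lists hold no member.

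Members just inside the rule were Glg1, Zmynd8, Phkb and Cbx7, each with a ratio of 1.5 over the highest other RNA, and just outside were Braf, Snhg1, Zic1 and Nagk, which also round to 1.5. The technical SD of a log2 difference given above is far wider than the gap between these genes.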

How the data were processed

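The authors deposited 1 intensity value per probe set and array on a linear scale, all above 0; the software, normalization and background correction were not stated in any source used here. Total RNA of 4 myotube preparations was measured on 8 arrays, and the deposited scale was kept. Groups came from the labels, and RNA275 and RNA276 were left unassigned. Control probe sets and those with several gene symbols or none were left out: on type A 20380 probe sets had 1 symbol, 691 several and 1555 none, and on type B 14661, 245 and 7605. Symbols were updated by gene number to RefSeq GRCm38.p6, which matched 20351 on type A and 14486 on type B, and all 256 members.

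Signals were floored at 70 (type A) and 110 (type B). A member was given by 1 probe set: among those meeting the rule, the one with the brightest mean, type A first. Medians, sums and counts of higher or lower genes in the lists used the brightest probe set of every gene, type A first, members included. The members and all lists were chosen with earlier results of these data known. The text names the 24 largest ratios over the highest other RNA, members in a list, 4 genes on each side of the threshold and members with several probe sets meeting the rule; other genes were chosen after their values were seen. With 1 RNA per label there is no test, and the number of arrays limits the precision. The rule was tested on simulated data with changes planted in bright genes, which does not test the members. Levels of different probe sets were not compared. Scripts ran under Python 3.11.15 with pandas 2.3.3, numpy 2.4.6, scipy 1.17.1 and matplotlib 3.10.9.

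Other settings tried were quantile normalization, equal medians, lower, higher and no floors, thresholds of 1.3-fold and 2-fold, the brightest probe set chosen first, the median over probe sets, leaving out probe sets marked for shared sequence, and dropping the condition on RNA276. Chosen after seeing the data were an intensity-dependent loess, scaling on the probe sets of both types, wildtype as the only other RNA, and leaving out RNA275 or RNA276.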

Additional observations from a re-analysis of the deposited data

How the results depend on the processing

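No paired analysis was possible because each label has 1 RNA. The number of members was 256 and came to between 195 and 377 with quantile normalization, equal medians, lower or higher floors, without probe sets marked for shared sequence, without the condition on RNA276, with loess, with scaling on the probe sets of both types or with RNA275 left out. It was 736 with no floor, 711 at 1.3-fold, 43 at 2-fold, 150 with the brightest probe set chosen first, 114 by the median over probe sets, 788 with wildtype as the only other RNA and 417 with RNA276 left out. Of these, 240 at no floor, 239 at 1.3-fold and 39 at 2-fold were among the 256. The hypoxia list held 5 members at 2-fold, and the matrix list 5. The glycogen and glucose list held 3 at 2-fold and 3 by the median over probe sets. The stress list held 7 at 1.3-fold, 0 at 2-fold, 2 with the brightest probe set first, 9 with wildtype as the only other RNA and 8 without RNA275, so its 4 members depend on these choices. The median log2 difference of the hypoxia list was 0.69, and between 0.56 and 0.72 over the other scalings, the other floors and the median over probe sets, the settings that can move it.

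The direction against the highest other RNA turned for 6 of 92 named members when the brightest probe set was chosen first. These were Asph -0.29, Cc2d1b -0.50, Herpud1 -0.081, Kdm6b -0.16, Tsc22d1 -0.070 and Zfp385b -0.11 in log2. The 92 hold every member with several probe sets meeting the rule, beside those of the largest ratios, those in a list and others picked. Their share therefore does not stand for all members. By the brightest probe set the direction also turned outside the 92, as for Arih2, Ap1m1, Rab1a and Cox6c. How many turned there was not counted. Thresholds and conditions of the rule leave a member's signals as they are. Of the 92, 33 moved by more than 0.178 in log2, the largest of the 3 technical SDs, or turned with the brightest probe set first, 37 by the median over probe sets, 21 in at least 1 of 3 floor settings and 0 in the 4 scalings. The cause was not tested. Dim members are limited by signal over the floor: 46 were at the floor in wildtype, 78 in RNA275 and 89 in RNA276, so their ratios are bounds.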

Other observations

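Some members are neighbours: in 7 pairs no other gene on the arrays lies between the members, namely Mmp11 and Chchd10, Alg10b and Cpne8, Triqk and Runx1t1, Hdac11 and Fbln2, Slc7a2 and Pdgfrl, Pdgfrl and Mtus1, and Cd109 and Col12a1. Slc7a2, Pdgfrl and Mtus1 thus form a run of 3. Pdgfrl, a receptor-like protein, read 464 in truncated Egr3, against 260.2 in wildtype, 190.3 in RNA275 and 276 in RNA276, and Mtus1, a microtubule-associated protein, read 179, against 115 in wildtype, 103 in RNA275 and 114 in RNA276. How many neighbours a set of this size would hold was not tested.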
